A study of Rattus norvegicus with 24 samples.

Results

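Cytochrome P450 genes of families 1 to 4 were followed in the liver of female Sprague-Dawley rats, an outbred laboratory strain, by RNA sequencing with 1 library per rat. Members are the rows of the gene table whose name starts with Cyp1, Cyp2, Cyp3 or Cyp4 and a subfamily letter and which reached 0.5 FPKM in at least 8 of the 24 libraries, where FPKM is the number of fragments of a gene scaled to the length of its transcript and to the mapped fragments of the library. Of 54 rows with such names, 36 met this minimum, among 12151 genes of the whole table that did, and they carry 34 names in 16 subfamilies. The control group had 8 rats under 12 h of light and 12 h of darkness a day with saline by gavage. The darkness group had 8 rats in constant darkness for 8 weeks with saline, a treatment the study uses to produce a model of polycystic ovary syndrome with disturbed lipids. The DL.reuteri group had 8 rats in the same constant darkness that received Limosilactobacillus reuteri at 100 mg per day by gavage. The housing began at 6 weeks of age. Livers were taken at 14 weeks after a fast of 16 h. Several rats shared a cage. Every liver was taken at 1 time of day, so a difference in level cannot be told apart from a difference in the phase of a daily rhythm.

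Cytochromes P450 are heme enzymes of the endoplasmic reticulum that insert an oxygen atom into lipophilic molecules, with electrons from the reductase Por and from cytochrome b5. Families 1 to 3 clear drugs, dietary compounds and steroids, and family 4 mainly oxidises fatty acids and eicosanoids at the end of the chain. In rat liver several of these genes differ strongly between the sexes. Cyp2c11, Cyp2c13 and Cyp3a2 are male-specific. Pulses of growth hormone in males maintain Cyp2c11, whereas the steadier hormone level of females maintains Cyp2c12. Other members respond to receptors that sense foreign compounds, namely the aryl hydrocarbon receptor (Cyp1), CAR (Cyp2b), PXR (Cyp3a) and PPAR alpha (Cyp4a).

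The promoters of 4 neighbouring family 2 genes are shown because these genes lie on the same stretch of rat chromosome 1 and differ in sex dependence: the female-specific Cyp2c12, the male-specific Cyp2c11 and Cyp2c13, and Cyp2c22, which oxidises retinoic acid. Each sequence runs 5′ to 3′ on the gene's own strand, from 250 bases before to 50 bases after the RefSeq transcript start in the GRCr8 assembly. Capitals mark the letters ATTGAT, the core that HNF6 recognises, AGGTCA, which many nuclear receptors bind, and TATAAA, the TATA box, each in either direction.
Cyp2c12 promoter, chr1:248676985-248677284, minus strand: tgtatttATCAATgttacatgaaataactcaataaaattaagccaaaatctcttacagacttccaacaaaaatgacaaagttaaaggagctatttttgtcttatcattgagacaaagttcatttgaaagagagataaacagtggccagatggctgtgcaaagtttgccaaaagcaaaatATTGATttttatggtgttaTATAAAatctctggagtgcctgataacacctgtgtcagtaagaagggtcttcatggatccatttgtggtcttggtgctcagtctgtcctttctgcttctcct
Cyp2c13 promoter, chr1:248787139-248787438, minus strand: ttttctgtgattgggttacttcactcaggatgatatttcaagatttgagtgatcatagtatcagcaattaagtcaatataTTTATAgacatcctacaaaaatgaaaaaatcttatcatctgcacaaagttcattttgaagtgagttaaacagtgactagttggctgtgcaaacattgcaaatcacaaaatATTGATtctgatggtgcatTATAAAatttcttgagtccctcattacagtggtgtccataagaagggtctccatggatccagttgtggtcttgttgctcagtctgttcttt
Cyp2c11 promoter, chr1:246174966-246175265, plus strand: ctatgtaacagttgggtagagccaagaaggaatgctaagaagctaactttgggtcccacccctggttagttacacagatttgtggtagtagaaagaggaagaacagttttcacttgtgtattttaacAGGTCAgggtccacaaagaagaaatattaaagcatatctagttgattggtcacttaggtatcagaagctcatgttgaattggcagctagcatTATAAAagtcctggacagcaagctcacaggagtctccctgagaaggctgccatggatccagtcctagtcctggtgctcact
Cyp2c22 promoter, chr1:248980718-248981017, minus strand: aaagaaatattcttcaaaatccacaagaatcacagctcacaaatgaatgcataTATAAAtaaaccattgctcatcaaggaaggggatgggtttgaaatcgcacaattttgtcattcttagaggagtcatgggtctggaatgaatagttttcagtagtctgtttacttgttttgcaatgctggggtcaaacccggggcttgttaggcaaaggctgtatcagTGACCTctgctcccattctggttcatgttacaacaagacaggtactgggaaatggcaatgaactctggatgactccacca

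The Cyp2c12 and Cyp2c13 windows held the HNF6 core, at 2 places and at 1 place, and the Cyp2c11 and Cyp2c22 windows held AGGTCA but no HNF6 core. ATTGAT on either strand was present in 5 of 28 member promoters (17.9%) and in 8.06% of the 33469 promoters of the table. AGGTCA was in 9 of the 28 and in 16.2% of all promoters, and TATAAA was in 9 of the 28 and in 14.2% of all. GCGTG, the core of the element bound by the aryl hydrocarbon receptor, was in 6 of the 28 and in 29.7% of all, and the STAT letters TTCNNNGAA were in 2 of the 28 and in 8.87% of all. A match describes these letters only, and promoters were given for 27 of the 34 member names, with 2 for Cyp2r1.

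Cyp2c12, a steroid hydroxylase specific to female rats, was the most abundant member, with a mean of 2103 FPKM over the 24 libraries (rank 35 among 12151 genes), and alone made up 28.9% of the summed FPKM of the members. It was followed by Cyp2e1, which oxidises ethanol and ketone bodies, at 983 FPKM, and by Cyp2c6v1, a constitutive drug-oxidising form, at 767 FPKM. Cyp1a2, which oxidises caffeine and aromatic amines, had 579 FPKM, Cyp2d2, a relative of the human debrisoquine hydroxylase, had 548 FPKM and Cyp2c23, which makes epoxides of arachidonic acid, had 510 FPKM. These 6 members together held 75.4% of the summed FPKM of all members. The level classes held 12 members at 100 FPKM or more, 10 between 10 and 100, 11 between 1 and 10 and 3 under 1. The list of 10 hepatocyte markers such as Alb and Ttr was measured in all libraries, and its mean log2(FPKM + 1) lay between 11.3 and 12.5 in all but 1 library.

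**Figure D1:**
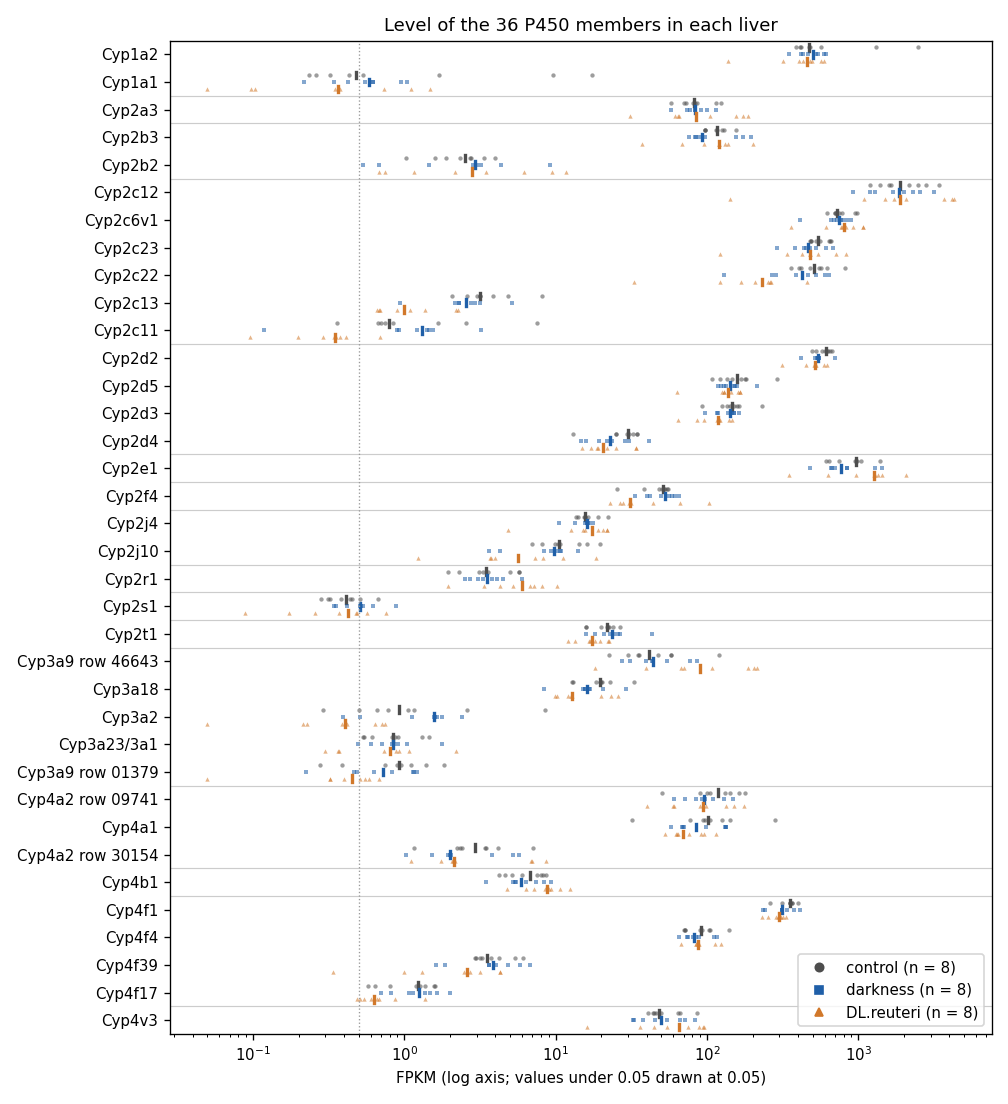
FPKM (log axis) of the 36 members in each liver, ordered by subfamily, with grey lines between subfamilies and rows of a shared name told apart by the last digits of their identifiers. Each point is 1 rat, with 8 rats per group, short vertical bars are group medians, and the dotted line is the minimum of 0.5 FPKM. The groups overlapped for each of the 36 members.

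Each of the 18 rows with such names but under the minimum stayed below 2 FPKM. Of these, 9 were at 0 in every library. The highest value among them was 1.75 FPKM for Cyp4a8 in darkness 8, and Cyp4a8 reached 0.5 FPKM in 4 libraries. Cyp1b1 and Cyp2u1 reached it in 1 library each. Just inside the minimum were Cyp2s1, a form found mainly outside the liver, with 9 libraries and Cyp1a1 with 12. Cyp2b1, the phenobarbital-inducible relative of Cyp2b2, had at most 0.188 FPKM, and Cyp2c7, a female-predominant form, was above 0 in 1 library, at 0.108 FPKM. Cyp2c13 had a further row under another identifier with at most 0.101 FPKM. The names Cyp3a9 and Cyp4a2 each stood on 2 member rows, which are told apart here by level (the abundant ENSRNOG00000046643 and the low ENSRNOG00000001379 for Cyp3a9, the abundant ENSRNOG00000009741 and the low ENSRNOG00000030154 for Cyp4a2). Cyp2b, Cyp2c, Cyp2d, Cyp3a and Cyp4a genes have near-identical neighbours, and how reads shared between such copies were divided is not given in the sources used here, so values within these subfamilies are uncertain.

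The libraries differed in ways that touch every member. Transcripts of the mitochondrial genome took between 12.4% and 59.7% of the FPKM in 23 libraries and 84.99% in DL.reuteri 3, whose hepatocyte marker mean was 8.82. DL.reuteri 3 was the lowest DL.reuteri library for 24 of the 36 members and the highest for 2 (Cyp2f4 and Cyp2t1). Adipocyte markers had a mean log2(FPKM + 1) of 4.45 in control 8 and of 3.77 in DL.reuteri 2, against at most 2.02 in the other libraries. Read counts were not used here. Steps of a fragment in low genes gave relative depths that spanned 1.57-fold between libraries, while the absolute depth is unknown. In bulk tissue, fewer cells of a type and less RNA per cell cannot be told apart.

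Summed over members, family 2 had the highest total in every group. The 20 family 2 members summed to 6114 ± 1255 FPKM (SD, n = 8) in control livers, 5538 ± 1273 in darkness livers and 6104 ± 2654 in DL.reuteri livers. The 9 family 4 members summed to 748 ± 96.4, 667 ± 91.3 and 640 ± 92.1 FPKM in the same order. The 5 family 3 members summed to 74.5 ± 35.0, 70.6 ± 25.5 and 131 ± 77.4 FPKM, of which the abundant Cyp3a9 row was the largest part. The pair of family 1 genes summed to 819 ± 744, 493 ± 91.6 and 429 ± 147 FPKM. As a share of the FPKM outside the mitochondrial genome, the 36 members took 1.797 ± 0.214% in control livers, 1.59 ± 0.130% in darkness livers and 1.797 ± 0.380% in DL.reuteri livers. DL.reuteri 3 had the lowest total of all libraries, 2269 FPKM, and DL.reuteri 8 the highest, 11454 FPKM.

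**Figure D2:**
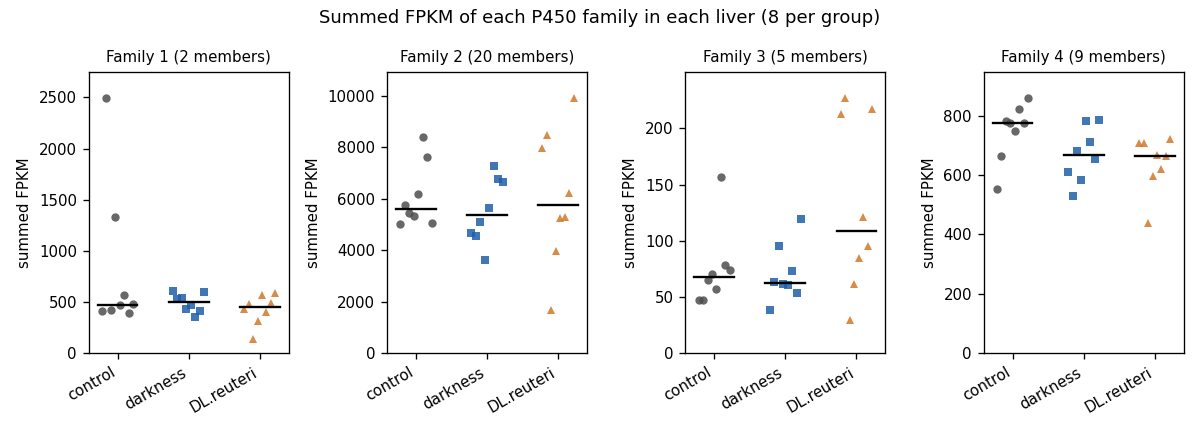
Summed FPKM of families 1, 2, 3 and 4 in each liver, with 8 points per group in replicate order and a black line at the group median. Control 2 and control 4 stand above the rest in family 1, and the DL.reuteri group has the widest spread in family 2.

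Constant darkness on its own was compared with the light-dark cycle first. No member was called at an adjusted p under 0.05 by limma with Benjamini-Hochberg adjustment, and 0% of the 12151 genes were. At an unadjusted p below 0.05, 0 members were higher and 0 were lower, while 0.477% of all genes were higher and 2.3% were lower. The study called genes at an unadjusted Ballgown p below 0.05 together with a log2 ratio beyond 0.6. With these thresholds set on the limma p and the ratio of group means, it was again 0 members each way. Of all genes, 0.313% were higher and 1.26% lower. The log2 differences of the members ran from -0.75 (Cyp1a1) to 0.18 (Cyp2t1, a form of unassigned substrate), with a median of -0.12 beside -0.07 over all genes. The difference had a negative sign for 28 members and a positive sign for 8, and the median over all genes was negative as well. The Ballgown library term, the model closest to that of the study, likewise called 0 members.

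Rats given L. reuteri were then set against each of the other groups, in 2 comparisons that share the DL.reuteri libraries and are not independent. Against darkness livers, 0 members were called at an adjusted p under 0.05 and 0.0823% of all genes were. At an unadjusted p below 0.05, 7 members were lower, against 4.89% of all genes, and 1 was higher, against 12% of all genes. Their median log2 difference was -0.12, and that of all genes was 0.07. Against control livers, 1 member, Cyp2c13, was called at an adjusted p under 0.05, where 0.14% of all genes were. At an unadjusted p below 0.05, 9 members were lower, against 6.81% of all genes, and 1 was higher, against 6.43%. Cyp2c11 and Cyp3a2 were among the lower members in both comparisons, and the low Cyp3a9 row against control livers. These rows reached 0.5 FPKM mainly in the other groups, so their part in the counts is not independent of that minimum. The median log2 difference was -0.25 for the members and 0.00 for all genes, and 28 of the 36 members had a negative sign. With the thresholds of the study set on the limma p, 6 members were lower and 1 higher than in darkness livers (2.22% and 6.61% of all genes). Against control livers, 8 were lower and 1 higher (2.91% and 3.06%). No member had groups that did not overlap in any comparison. Of all genes, 0.0411% lay wholly higher and 0.222% wholly lower in DL.reuteri than in control livers, 0.0165% and 0.107% in DL.reuteri than in darkness livers, and 0.00823% and 0.0247% in darkness than in control livers.

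**Figure D3:**
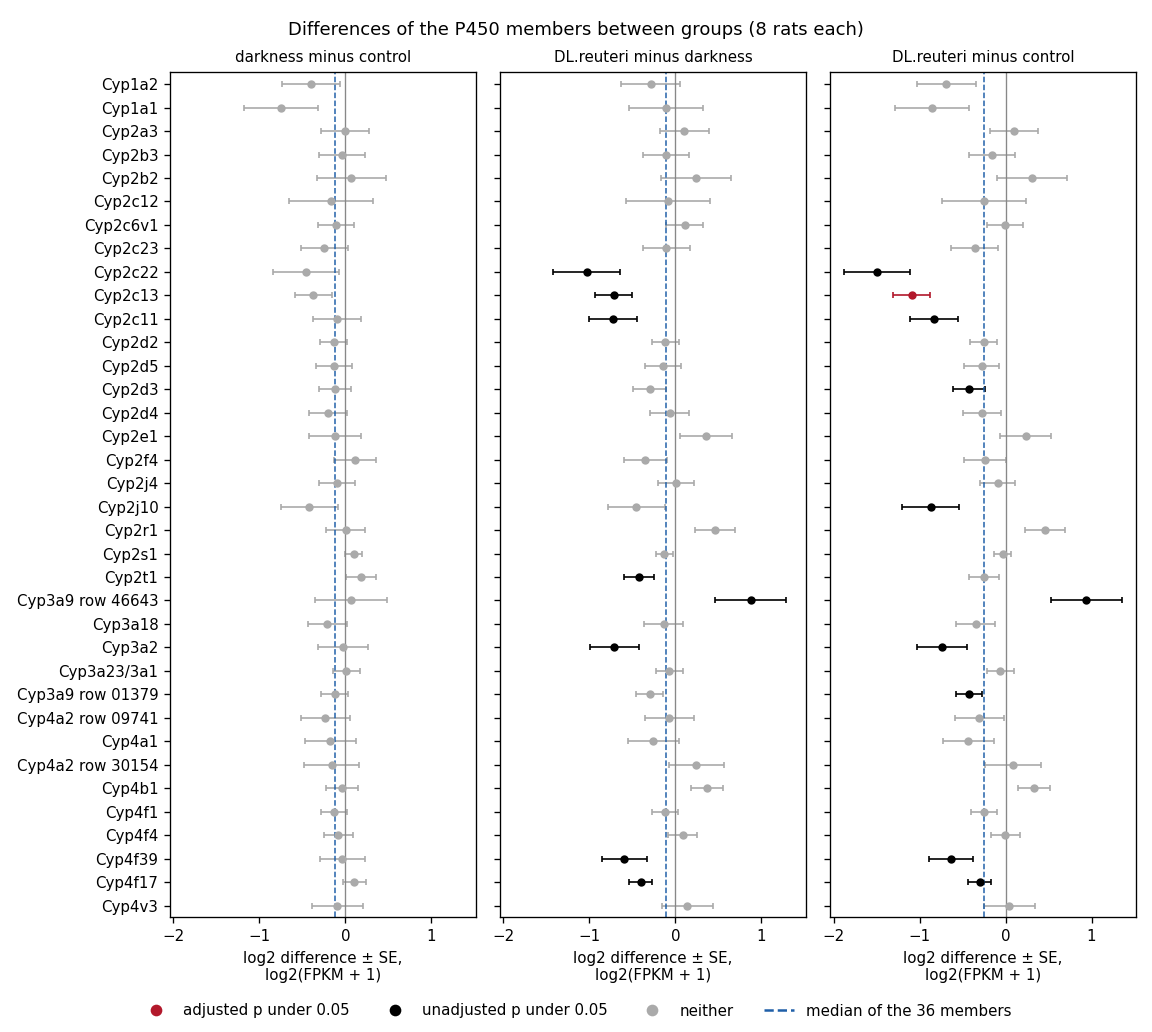
Difference between group means of log2(FPKM + 1) with its standard error for the 36 members in the 3 comparisons (8 rats per group). Red marks an adjusted p under 0.05, black an unadjusted p below 0.05, and the dashed line is the median of the members. Cyp2c13 against control livers is the red point, and the abundant Cyp3a9 row has the highest difference in both comparisons with DL.reuteri livers.

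The male-specific genes had low RNA in these female livers, and the lowest levels were in DL.reuteri livers. Cyp2c13 (ENSRNOG00000049464), a testosterone hydroxylase specific to male rats, had 2.05, 3.15 and 8.12 FPKM in control livers (lowest, median and highest), 0.940, 2.54 and 5.15 in darkness livers and 0.662, 0.993 and 2.25 in DL.reuteri livers. All 8 DL.reuteri libraries were below the control median, 6 were below every control library and 4 were below every darkness library. The mean of 1.23 ± 0.658 FPKM (SD, n = 8) was 3.13-fold lower than the 3.85 ± 1.92 of control livers. The log2 difference was -1.09 ± 0.22 (SE), with an adjusted p of 0.0335 from limma over all genes. Against darkness livers, with 2.71 ± 1.19 FPKM, it was -0.72 ± 0.22 (adjusted p 0.0946). The call against control livers was lost in 13 of the 24 fits that left 1 library out (those without control 1, 2, 3, 4, 5, 7 or 8 or without DL.reuteri 1, 2, 5, 6, 7 or 8, adjusted p 0.0557 to 0.103), while over all 24 the difference stayed between -1.18 and -0.95. Without DL.reuteri 3 it was called in both comparisons, with an adjusted p of 0.0397 against darkness livers and 0.0204 against control livers, where 10% and 2.07% of all genes were called.

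Cyp2c11, the main testosterone hydroxylase of male rat liver, had 0.361, 0.797 and 7.54 FPKM in control livers, 0.119, 1.31 and 3.23 in darkness livers and 0.0957, 0.348 and 0.689 in DL.reuteri livers. All 8 DL.reuteri libraries were below the median of each other group, and control 3 stood far above the rest of its group, whose next highest library had 2.55 FPKM. Cyp2c11 reached 0.5 FPKM in 15 of the 24 libraries, and the second highest DL.reuteri library had 0.409 FPKM. It thus met the minimum through the other groups, and its lower level in DL.reuteri livers is not independent of that minimum. The log2 difference was -0.83 ± 0.28 (SE) against control livers (adjusted p 0.202) and -0.73 ± 0.28 against darkness livers (adjusted p 0.179). Without control 3 the control mean went from 1.89 to 1.078 FPKM and the difference to -0.57. The scale of log2(FPKM + 1) understates differences at such low levels.

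Cyp3a2, a male-specific steroid 6-beta hydroxylase, showed the same order. It had 0.288, 0.921 and 8.54 FPKM in control livers, 0.395, 1.58 and 2.41 in darkness livers, and 0, 0.404 and 0.745 in DL.reuteri livers, all 8 of them below the median of each other group. It reached 0.5 FPKM in 17 of the 24 libraries, mainly in the other groups, so the limit given for Cyp2c11 applies here too. Control 3 was again the highest library, and without it the control mean was 1.004 FPKM instead of 1.95. The differences were -0.74 ± 0.29 against control livers (adjusted p 0.281) and -0.71 ± 0.29 against darkness livers (adjusted p 0.205). Without control 3 the difference from control livers was -0.45 (adjusted p 0.321). Cyp3a18, another male-predominant member, had 20.0 ± 6.27 FPKM in control livers, 17.3 ± 5.88 in darkness livers and 15.8 ± 6.21 in DL.reuteri livers and did not pass either threshold. Over the 6 rows of the male-predominant list, which also holds both Cyp4a2 rows, 3 were lower at an unadjusted p below 0.05 in each comparison with DL.reuteri livers and 0 were higher. At that p, 4.89% of all genes were lower and 12% higher than in darkness livers. Against control livers it was 6.81% and 6.43%. The medians of the list were -0.42 against darkness livers and -0.54 against control livers. The 3 lower rows were Cyp2c11, Cyp2c13 and Cyp3a2. Because Cyp2c11 and Cyp3a2 met the minimum mainly through the other groups, these counts and medians are not independent of that minimum.

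Correlations here and below were taken after the group mean of log2(FPKM + 1) was subtracted from each value, with permutations within groups. Across the 24 rats Cyp2c11 and Cyp3a2 went together, with a Pearson r of 0.84 (adjusted permutation p 0.00312 over 6 pairs, unadjusted 0.000520). Spearman rho was 0.58 (adjusted permutation p 0.0276). Without control 3 and darkness 1, the rats farthest from the median of Cyp2c11 after that subtraction, r was 0.64. It was 0.95 within control livers and 0.84 within darkness livers, but -0.87 within DL.reuteri livers, where neither gene reached 0.8 FPKM. Cyp2c11 and Cyp2c12 had an r of -0.06 over the 24 rats (adjusted permutation p 0.655). Points share the library and its scaling.

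None of the female-predominant rows was called in any comparison by limma. At an unadjusted p below 0.05, 1 of 3 was higher and 1 lower than in control livers (6.43% and 6.81% of all genes). Both carry the name Cyp3a9: the abundant row was higher and the low row lower. The low row had a DL.reuteri median of 0.453 FPKM, under the minimum, so its count is not independent of that minimum. Cyp2c12 had 1188, 1895 and 3430 FPKM in control livers, 918, 1849.9 and 3166 in darkness livers and 141, 1896 and 4315 in DL.reuteri livers. The medians of the groups were thus within a small part of their spread, while the DL.reuteri group was the widest, from 141 FPKM in DL.reuteri 3 to 4315 in DL.reuteri 8. The log2 difference was -0.25 ± 0.49 (SE) against control livers (adjusted p 0.871), although the arithmetic mean of 2333 FPKM was above the 2086 of control livers. Without DL.reuteri 3 the mean was 2646 FPKM. Within a library, Cyp2c12 exceeded Cyp2c11 by a median of 1875-fold in control livers, 1588-fold in darkness livers and 7709-fold in DL.reuteri livers, with ranges that overlapped. The divisor, Cyp2c11, was near the floor in DL.reuteri livers, at 0.0957 to 0.689 FPKM. It met the minimum through the other groups, so the higher ratio in DL.reuteri livers is not independent of that minimum.

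Cyp3a9, a female-predominant form that hydroxylates steroids and retinoids, was the only member name with higher values in DL.reuteri livers at an unadjusted p below 0.05. The abundant row of the name had 22.4, 41.3 and 121 FPKM in control livers, 27.5, 43.7 and 85.7 in darkness livers and 18.3, 89.4 and 213 in DL.reuteri livers. DL.reuteri 1, 2 and 8, at 188, 213 and 203 FPKM, lay above every library of the other groups, and DL.reuteri 3, at 18.3, lay below every one. The mean of 114 ± 77.5 FPKM was 2.26-fold that of darkness livers, 50.2 ± 21.0, with a log2 difference of 0.87 ± 0.41 (adjusted p 0.284), and 2.24-fold that of control livers, 50.7 ± 31.0, with 0.94 ± 0.41 (adjusted p 0.330). Without DL.reuteri 3 the difference from darkness livers was 1.19 with an adjusted p of 0.0373, in a fit where 1220 of all genes were called in place of 10, and that from control livers was 1.25 and was not called (adjusted p 0.0597). The low Cyp3a9 row had at most 1.83 FPKM and the opposite sign, -0.43 ± 0.16 against control livers (adjusted p 0.243). That row reached 0.5 FPKM in 15 libraries, and its DL.reuteri median of 0.453 FPKM lay under this minimum. Cyp3a23/3a1, the form induced through PXR, had means of 0.882, 0.901 and 0.855 FPKM.

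**Figure D4:**
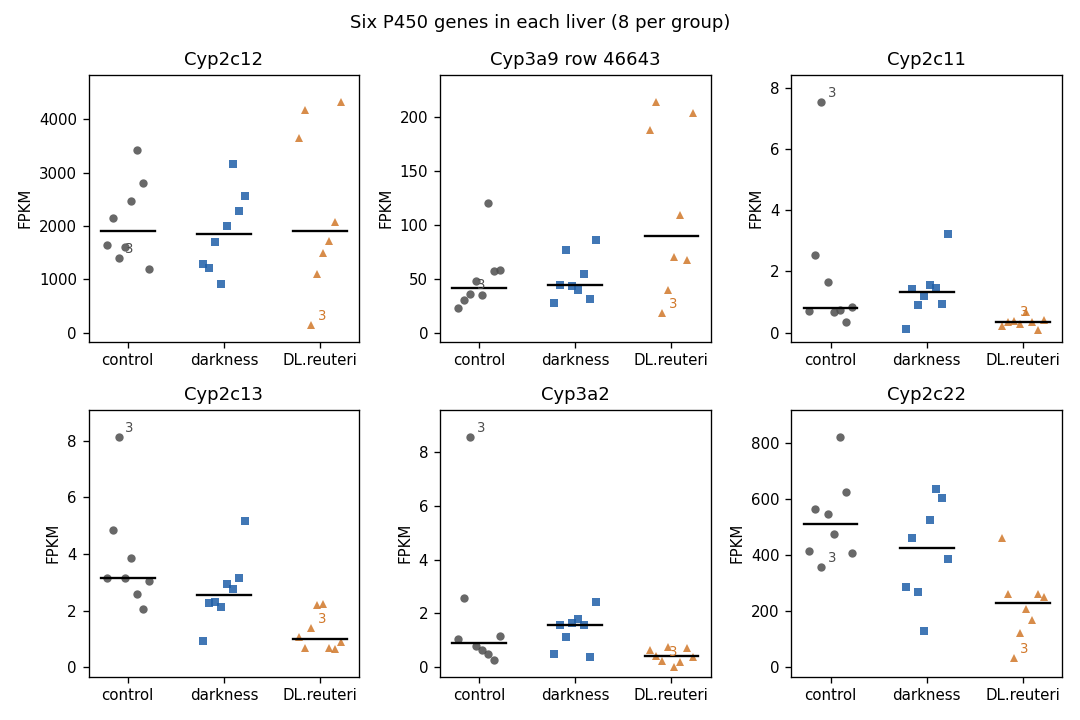
FPKM of 6 members in each liver, with 8 points per group in replicate order, a black line at the group median, and control 3 and DL.reuteri 3 marked by a 3. Cyp2c11, Cyp2c13 and Cyp3a2 are lowest in DL.reuteri livers and highest in control 3, and the abundant Cyp3a9 row and Cyp2c12 are highest in 3 DL.reuteri livers.

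Cyp2c22 (ENSRNOG00000021924), which hydroxylates retinoic acid in rat liver, had the largest difference of the abundant members. It had 358, 512 and 821 FPKM in control livers, 129, 424 and 636 in darkness livers and 33.0, 230 and 461 in DL.reuteri livers. Of the DL.reuteri libraries, 7 of 8 were below every control library, and DL.reuteri 1 was the exception. The mean of 221 ± 125 FPKM was 2.39-fold lower than the 527 ± 149 of control livers, with a log2 difference of -1.49 ± 0.39 (SE) and an adjusted p of 0.110, and 1.87-fold lower than the 412 ± 178 of darkness livers (-1.03 ± 0.39, adjusted p 0.175). Without DL.reuteri 3 the mean was 248 FPKM, and the difference from control livers was -1.15 with an adjusted p of 0.0414, in a fit where 251 of all genes were called in place of 17. In the same fit the difference from darkness livers was -0.69 in place of -1.03 and was not called (adjusted p 0.131). The neighbouring abundant members of the same subfamily had smaller differences from control livers, -0.01 for Cyp2c6v1 and -0.36 ± 0.27 for Cyp2c23.

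Among the makers of arachidonic acid epoxides, Cyp2c23 had 560 ± 78.0 FPKM in control livers, 482 ± 124 in darkness livers and 489 ± 215 in DL.reuteri livers. Cyp2j4, which also epoxidises arachidonic acid, had 16.5 ± 2.84, 15.3 ± 2.28 and 16.4 ± 5.77 FPKM. Cyp2j10 had medians of 10.5, 9.73 and 5.62 FPKM, with 4 of 8 DL.reuteri libraries below every control library and DL.reuteri 2, at 18.5, near the top of the control range. Its log2 difference from control livers was -0.87 ± 0.33 (adjusted p 0.275). Of the 4 epoxygenase rows, which include Cyp2c11, 2 were lower than in control livers at an unadjusted p below 0.05 (6.81% of all genes). Against darkness livers 1, Cyp2c11, was lower at that p (4.89% of all genes). Cyp2c11 met the minimum of 0.5 FPKM through the other groups, so its part in both counts is not independent of that minimum.

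The family 1 genes were set apart by 2 control livers. Cyp1a1, an aryl hydrocarbon receptor target that is nearly silent in unexposed liver, had 17.4 FPKM in control 2 and 9.65 in control 4 and at most 1.68 in the other 22 libraries. Cyp1a2, which the liver makes constitutively and the same receptor raises, had 2477 FPKM in control 2, 1317 in control 4 and at most 612 elsewhere. Its medians were 475, 499 and 456 FPKM in the 3 groups in the same order. Without the 2 rats the control mean of Cyp1a2 was 455 ± 63.9 FPKM (n = 6) in place of 816 ± 738, and that of Cyp1a1 was 0.577 ± 0.553 in place of 3.82 ± 6.36. The log2 differences of DL.reuteri from control livers were -0.69 ± 0.34 for Cyp1a2 and -0.86 ± 0.43 for Cyp1a1 (adjusted p 0.386 and 0.392), and -0.19 and -0.06 without those rats (adjusted p 0.888 and 0.966). Pearson r between the genes was 0.80 over the 24 rats (adjusted permutation p 0.00474; Spearman rho 0.65, adjusted permutation p 0.0276) and 0.54 over the 22 rats left without control 2 and control 4. It was 0.98 within control livers, -0.46 within darkness livers and 0.47 within DL.reuteri livers. The third gene of the receptor's list, Cyp1b1, stayed below the minimum. Nqo1, another target of the receptor, ranged from 9.08 to 61.6 FPKM in control livers, with 45.4 in control 2 and 29.2 in control 4, inside that range.

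**Figure D5:**
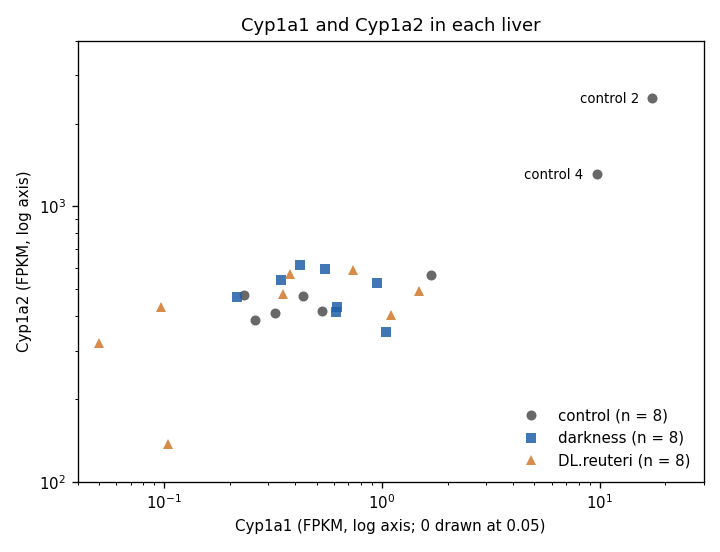
Cyp1a1 against Cyp1a2 in each liver (FPKM, both axes on a log scale, with the value of 0 drawn at 0.05). Control 2 (17.4 and 2477 FPKM) and control 4 (9.65 and 1317 FPKM) lie apart from the other 22 rats.

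No fatty acid hydroxylase of family 4 was called in any comparison by limma. Cyp4a1, the classical PPAR alpha target that starts the omega oxidation of fatty acids, had means of 119 ± 72.7 FPKM in control livers, 95.2 ± 32.8 in darkness livers and 77.7 ± 21.4 in DL.reuteri livers. It reached 279 FPKM in control 8, the library with the highest adipocyte marker mean, and at most 143 in every other library. DL.reuteri 2, the other library with high adipocyte markers, had less Cyp4a1 than DL.reuteri 5, 6 and 7. The highest value in the DL.reuteri group was 115 FPKM. The part of adipocytes in the value of control 8 was not tested. The abundant Cyp4a2 row had 120 ± 41.7, 99.3 ± 29.2 and 101 ± 48.1 FPKM, and the low Cyp4a2 row had 3.29 ± 1.79, 2.91 ± 1.79 and 3.97 ± 3.00 FPKM. Cyp4a1 had an r of 0.43 with the abundant Cyp4a2 row over the 24 rats (adjusted permutation p 0.0742) and of 0.15 with the low row (adjusted permutation p 0.542).

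Cyp4f1, which hydroxylates leukotriene B4 and other eicosanoids, had the smallest SD within groups (0.22 on the log2 scale) of the members at 100 FPKM or more, with levels of 346 ± 41.7, 318 ± 60.3 and 290 ± 34.3 FPKM. Cyp4f4, an enzyme of the same kind, had 93.0 ± 23.6, 86.9 ± 18.1 and 91.9 ± 17.8 FPKM. Cyp4f39, whose mouse form hydroxylates very long fatty acids for the skin barrier, had 2.91, 3.51 and 6.08 FPKM in control livers, 1.61, 3.85 and 6.81 in darkness livers and 0.335, 2.59 and 4.31 in DL.reuteri livers. Of the DL.reuteri libraries, 5 of 8 were below every control library, and the log2 differences were -0.63 ± 0.26 from control livers (adjusted p 0.300) and -0.60 ± 0.26 from darkness livers (adjusted p 0.242). Cyp4f17 had medians of 1.23, 1.25 and 0.631 FPKM, with 6 of 8 DL.reuteri libraries below every darkness library. Its log2 difference was -0.40 ± 0.13 from darkness livers (adjusted p 0.131) and -0.30 ± 0.13 from control livers (adjusted p 0.336). Over the 7 omega hydroxylase rows tested, 2 were lower at an unadjusted p below 0.05 in each comparison with DL.reuteri livers and 0 were higher. Of all genes, 4.89% were lower than in darkness livers and 6.81% lower than in control livers at that p. Cyp4b1, which activates furan toxins in lung, had 6.54 ± 1.77, 6.36 ± 1.89 and 8.51 ± 2.42 FPKM, and Cyp4v3, whose human counterpart is mutated in a crystalline disease of the retina, had 55.3 ± 15.7, 53.0 ± 18.9 and 63.1 ± 29.7 FPKM.

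Of the drug-oxidising Cyp2d members, Cyp2d2 had 595 ± 60.6, 544 ± 76.7 and 506 ± 93.6 FPKM, Cyp2d5 had 166 ± 56.2, 147 ± 30.0 and 136 ± 33.3, and Cyp2d4, the form also found in brain, had 28.0 ± 7.12, 24.6 ± 8.83 and 23.1 ± 7.33. The 4 genes of this subfamily had the same order of group means, and their log2 differences between DL.reuteri and control livers lay between -0.43 and -0.25. Cyp2d3, at 150 ± 39.6, 135 ± 22.2 and 111 ± 27.8 FPKM, had the difference of -0.43 ± 0.19, with an adjusted p of 0.330. The other 3 genes had an unadjusted p above 0.05 in every comparison.

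Of the remaining members, Cyp2t1 alone had an unadjusted p below 0.05 in any comparison. Cyp2e1 had 916 ± 255, 864 ± 329 and 1169 ± 526 FPKM, from 348 FPKM in DL.reuteri 3 to 2063 in DL.reuteri 8, with a log2 difference of 0.35 ± 0.30 from darkness livers (adjusted p 0.594). Cyp2e1 and Cyp1a2 are both made by the hepatocytes around the central vein, and their r over the 24 rats was 0.28 (adjusted permutation p 0.265). It was -0.46 within control livers, 0.06 within darkness livers and 0.95 within DL.reuteri livers, and over all rats it turned to -0.048 without DL.reuteri 3, to -0.10 without DL.reuteri 3 and DL.reuteri 8 and to -0.12 on the sum outside the mitochondrial genome. Cyp2r1, which hydroxylates vitamin D at position 25, had 3.84 ± 1.48, 3.75 ± 1.13 and 5.89 ± 2.69 FPKM, with differences of 0.46 ± 0.23 from each of the other groups (adjusted p 0.392 from control and 0.316 from darkness livers). Cyp2t1 had medians of 21.99, 23.5 and 17.5 FPKM, and all 8 DL.reuteri libraries were below the darkness median, with a difference of -0.43 ± 0.17 (adjusted p 0.209). Cyp2b3, a constitutive relative of the phenobarbital-inducible forms, had 116 ± 20.3, 119 ± 47.2 and 114 ± 49.3 FPKM, and Cyp2b2, the CAR target, had 2.46 ± 0.957, 3.16 ± 2.78 and 4.44 ± 4.25 FPKM, up to 11.8 in DL.reuteri 8. Cyp2a3, known as a coumarin hydroxylase of the airways, had 86.0 ± 22.3, 84.98 ± 17.2 and 105 ± 58.9 FPKM. Cyp2f4, which oxidises naphthalene, had 47.0 ± 10.2, 50.7 ± 11.2 and 44.0 ± 27.3 FPKM, and Cyp2s1 had 0.420 ± 0.126, 0.521 ± 0.172 and 0.397 ± 0.219 FPKM.

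Several members were high in the same DL.reuteri livers. DL.reuteri 1, 2 and 8 were the 3 highest DL.reuteri libraries for 7 members, Cyp2a3, Cyp2c12, Cyp2j10, the abundant Cyp3a9 row, Cyp4v3 and both Cyp4a2 rows. These libraries had mitochondrial shares of 18.8% to 20.0%, whereas the other DL.reuteri libraries had 34.2% to 84.99%, and their part in the members' FPKM was not tested beyond rescaling. With FPKM rescaled to the sum outside the mitochondrial genome, 1 of the 36 members was called against darkness livers, where 8.37% of all genes were, and 2 of the 36 against control livers, where 2.1% of all genes were. Control 6 was the highest control library for 13 members and darkness 6 the highest darkness library for 13, with mitochondrial shares of 21.0% and 16.5%. The order of libraries was not counted over all genes or after the rescaling, so these orders are not shown to be particular to the members.

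The partners and regulators of the enzymes gave the setting for these values. Of 18 genes of electron supply and heme metabolism, 0 were called in any comparison at an adjusted p under 0.05 by limma. At an unadjusted p below 0.05, 2 were lower and 0 higher in DL.reuteri livers in each comparison. The share of all genes lower at that p was 4.89% against darkness livers and 6.81% against control livers. Cyb5r3, the reductase of cytochrome b5, had 237 ± 58.9, 218 ± 36.6 and 134 ± 49.5 FPKM (-0.89 from control livers, adjusted p 0.133), and Cyb5a, cytochrome b5 itself, had 1247 ± 175, 1109 ± 192 and 891 ± 255 FPKM (-0.54, adjusted p 0.275). Por had 37.4 ± 10.6, 32.8 ± 10.9 and 43.1 ± 22.8 FPKM. Hmox1, which degrades heme, had 40.8 ± 14.7 FPKM in darkness livers and 22.3 ± 8.35 in DL.reuteri livers (-0.84, adjusted p 0.128).

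Of 24 nuclear receptors and other regulators of these genes, 0 were called at an adjusted p under 0.05 by limma. At an unadjusted p below 0.05, 2 were higher and 2 lower in darkness than in control livers (0.477% and 2.3% of all genes). Against darkness livers, 4 were higher and 3 lower in DL.reuteri livers (12% and 4.89% of all genes). Against control livers, 1 was higher and 1 lower in DL.reuteri livers (6.43% and 6.81% of all genes). Onecut1, which encodes HNF6, an activator of Cyp2c12 in female liver, had 4.73, 13.6 and 35.0 FPKM in control livers, 0.472, 8.33 and 24.97 in darkness livers and 7.44, 29.2 and 33.9 in DL.reuteri livers, with a log2 difference of 1.66 between DL.reuteri and darkness livers (adjusted p 0.0830). Hnf4a, a general activator of liver P450 genes, had 82.3 ± 12.1, 79.7 ± 16.2 and 121 ± 28.0 FPKM (0.59, adjusted p 0.0816). Socs2, a target and inhibitor of growth hormone signalling, had 45.9 ± 37.7, 62.5 ± 38.6 and 23.4 ± 7.94 FPKM (-1.16, adjusted p 0.147). Its medians were 27.9, 56.7 and 22.4 FPKM, and control 4 reached 126 FPKM. Means in the same order were 120, 103 and 146 FPKM for Ghr and 8.87, 8.55 and 7.34 for Stat5b. Cux2 had means of 38.9, 42.8 and 38.1 FPKM and Bcl6 of 1.87, 1.95 and 1.84. Rxra, which the paper names as a potential target of L. reuteri, had means of 10.2, 20.04 and 10.9 FPKM. For each of these genes the groups overlapped. Ahr had 15.97 ± 5.46, 18.5 ± 13.6 and 21.6 ± 4.39 FPKM. Of the 4 clock output factors of the PAR bZIP family and its repressor, Dbp had 0.945 ± 0.127 FPKM in darkness livers and 4.67 ± 5.47 in DL.reuteri livers (0.92, adjusted p 0.219). The DL.reuteri median of Dbp was 1.47 FPKM: DL.reuteri 5, 6 and 7 had 11.1, 7.82 and 13.9 FPKM, whereas DL.reuteri 1, 2 and 3 lay below every darkness library. Tef had 1.68 ± 0.205 and 3.45 ± 1.90 FPKM (0.62, adjusted p 0.125), and Hlf 2.43 ± 1.01 and 3.58 ± 1.71 (0.36, adjusted p 0.470). Nfil3, the repressor, had 83.0 ± 28.7 FPKM in control, 69.4 ± 28.7 in darkness and 55.4 ± 18.9 in DL.reuteri livers, with log2 differences of -0.57 from control livers (adjusted p 0.339) and -0.29 from darkness livers (adjusted p 0.620). Of 13 PPAR alpha targets outside the P450 families, 1, Plin2, was higher at an unadjusted p below 0.05 in DL.reuteri than in darkness livers (0.51, adjusted p 0.240), where 12% of all genes were.

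Markers of hepatocytes and of their zones were read beside the members. Of 8 genes of pericentral hepatocytes, 2 were higher in DL.reuteri than in darkness livers at an unadjusted p below 0.05 (12% of all genes). Against control livers 2 were higher (6.43% of all genes), 1 of them called (0.14%). The summed level of that list ranged from 501 to 713 FPKM in control livers, 370 to 822 in darkness livers and 177 to 966 in DL.reuteri livers. Of the 10 hepatocyte markers, 1 was lower at an unadjusted p below 0.05 in each comparison with DL.reuteri livers. Of all genes, 4.89% were lower against darkness and 6.81% against control livers. The summed level of the 10 markers ranged from 46190 to 92240, 49801 to 98601 and 11474 to 95409 FPKM. The part of these markers in the P450 values was not tested.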

How the data were processed

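RNA was measured in 24 rat livers, 8 per group, and groups were taken from the sample labels. The authors used Seqtk for trimming, HISAT2 2.0.4 for mapping to Rnor 6.0 and StringTie 1.3.0 for the deposited FPKM per gene. No further scaling is stated. Of 30958 rows, a repeat of 1 identifier at 0 throughout was left out. Here log2(FPKM + 1) was fitted with limma 3.58.1 in R 4.3.3 (variance trend, 3 group means, no covariate) over the 12151 genes that reached 0.5 FPKM in 8 libraries or more, with Benjamini-Hochberg adjustment over all of them. Correlations used log2(FPKM + 1) with each group mean subtracted and 100000 permutations within groups, in Python 3.11.15 with scipy 1.17.1. The members, lists and tests were chosen with earlier results of these data known. Members with an unadjusted p under 0.05 in a comparison were described in full. Rats were treated as independent although cages held several, so p measure the spread between rats only. Absolute depth is unknown, so no counting interval was given, and precision is that of 8 rats. Alternatives were pseudocounts of 0.1 and 0.01, a filter of 1 FPKM or none, rescaling to the 75th percentile, by median ratios or to the sum outside the mitochondrial genome, fits of just 2 groups, array weights, the library term of Ballgown, a replicate block, and fits without named libraries. The fit was tested on simulated data. Promoters and names were matched by symbol to RefSeq tables of GRCr8, whose other coordinates are not used because the files are on Rnor 6.0.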

Additional observations from a re-analysis of the deposited data

Results flagged for a closer look

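Of 108 sets of 8 livers (36 members in 3 groups), 17 had a library separated from the others of its group by more than a single-outlier limit for 8 values. That limit is set to pass about 1 in 20 sets (5%) of independent, normally distributed values. It was applied to FPKM without a log transform, and the members share the same rats. The 5% is thus not the rate to be met by chance in these sets. Control 3 was highest for 3 male-specific genes, with 8.12 FPKM for Cyp2c13 (next 4.83), 7.54 for Cyp2c11 (next 2.55) and 8.54 for Cyp3a2 (next 2.58), and darkness 8 was highest for Cyp2c11 at 3.23 (next 1.55). Control 2 had 2477 FPKM of Cyp1a2, next to 1317 in control 4. Control 6 had 121 FPKM of the abundant Cyp3a9 row (next 57.8) and 289 of Cyp2d5 (next 180). Control 8, the library with the highest adipocyte marker mean, was highest for Cyp4a1 at 279 FPKM (next 143) and lowest for Cyp2d4 at 12.9 (next 24.9). Cyp2d5 was also apart in darkness 3, at 213 FPKM (next 157), and in DL.reuteri 3, at 63.8 (next 126), the library with the most mitochondrial transcripts. Darkness 7 was highest for Cyp2d2 at 701 FPKM (next 553) and for Cyp2t1 at 43.4 (next 26.7), and darkness 6 for Cyp2b2 at 9.21 (next 4.32). Cyp3a23/3a1 was highest in darkness 5 at 1.77 FPKM (next 1.04) and in DL.reuteri 6 at 2.19 (next 1.07), and Cyp4f17 in DL.reuteri 4 at 1.37 (next 0.867).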

How the results depend on the processing

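The log2 difference kept its sign for each of the 11 members described at an unadjusted p under 0.05 in all alternatives that were run, and the median over the members stayed negative except against darkness rats, where it ranged from -0.20 to 0.03. Counts moved with the scaling. Members called at an adjusted p under 0.05 against darkness rats (0 in the fit of the text) were 1 after rescaling to the 75th percentile and to the sum outside the mitochondrial genome, 2 with the Ballgown library term, 7 with array weights and 2 without DL.reuteri 3 on the sum outside the mitochondrial genome. Against control rats (1) they were 0 with no filter, with only the 2 groups compared and without control 2 and control 4, 2 after rescaling to the 75th percentile, by median ratios and to the sum outside the mitochondrial genome, 2 with the Ballgown library term, 4 with array weights and 2 without DL.reuteri 3 on the sum outside the mitochondrial genome. Of all 12151 genes, the calls against darkness rats and against control rats (10 and 17 in the fit of the text) were 433 (3.56%) and 174 (1.43%) at the 75th percentile, 461 (3.79%) and 151 (1.24%) by median ratios, 1017 (8.37%) and 255 (2.1%) on the sum outside the mitochondrial genome, 972 (8%) and 251 (2.07%) on that sum without DL.reuteri 3, 945 (7.78%) and 633 (5.21%) with the Ballgown library term and 1987 (16.4%) and 1045 (8.6%) with array weights. Members higher at an unadjusted p under 0.05 against darkness rats (1) were 0 with no filter, with 2 groups, with the Ballgown library term and without control 2 and control 4, 2 at the 75th percentile, 3 on the sum outside the mitochondrial genome with or without DL.reuteri 3 and 5 with array weights. Against control rats (1) they were 0 with 2 groups and without control 2 and control 4, 2 at the 75th percentile, by median ratios and with the Ballgown library term, and 3 on the sum outside the mitochondrial genome with or without DL.reuteri 3 and with array weights. The cause was not tested. Leaving out each library in turn gave 0 to 2 called against darkness rats (0 to 1220 of all genes), 0 to 2 called against control rats (0 to 251 of all genes), 0 to 3 higher against darkness rats, 0 to 2 higher against control rats and 0 to 1 lower in darkness than in control rats.

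Cyp2c13 against control rats had an adjusted p between 0.00266 and 0.268 over 38 alternatives and stayed under 0.05 in 20 of them. Its adjusted p was 0.0691 with no filter, 0.0874 with the 2 groups only, 0.111 without control 8 and DL.reuteri 2, and 0.0565 without control 3. The correlation of Cyp2e1 with Cyp1a2 turned from 0.28 to -0.12 on the sum outside the mitochondrial genome and to -0.048 without DL.reuteri 3. Rescaling to that sum moved the median of all genes by 0.10 against darkness rats and 0.13 against control rats, and array weights moved it by 0.11 against darkness rats. The labels give replicate numbers no meaning, and whether a number marks a shared cage or batch could not be decided. After group means were subtracted, same-numbered libraries had correlations from -0.39 to 0.60, 12 of 24 over 0.1. In 7 of 24 cases the best partner among the 8 libraries of the other group had the same number. With the replicate number as a block, 0 members were called against control rats, 0 against darkness rats and 0 in darkness against control rats, and the adjusted p of Cyp2c13 was 0.0630. With 8 rats per group and no read counts, differences in members under 1 FPKM are the least certain.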
